A study of Mus musculus with 20 samples.

Results

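The genes described here are 10 members of the BCL-2 family, which set the threshold of the mitochondrial pathway of cell death: Bcl2, Bcl2l1, Mcl1, Bcl2l11, Bmf, Bbc3, Pmaip1, Bid, Bak1 and Bax. They were chosen by name, and each gene was followed through every probe set whose annotation gave that 1 symbol and no other. This found 30 of the 44200 probe sets on the arrays, for 9 of the 10 genes. Bax is not analysed here.

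RNA levels came from 20 arrays (Affymetrix Mouse 430 v2) that cover 7 groups of mouse pre-B cells. The lines were pre-B cells transformed by v-abl, the oncogene of the Abelson virus, and all of them had spent 48 hours in 3 uM STI571 (imatinib), an inhibitor of the Abl kinase. Such arrested cells are known to express RAG, the enzyme that breaks DNA so that antigen receptor genes can be assembled. Lines deficient in RAG-2 (3 samples) make no such breaks and were the study's control. Wild type lines (3 samples) can make and rejoin the breaks. Artemis-deficient lines (3 samples) make them but cannot open the sealed hairpins at coding ends, and joining stalls. A further group lacked both Artemis and ATM, the kinase that signals a break (2 samples, each on 2 technical arrays that were averaged). The last lacked Artemis and expressed a dominant negative IkB, an inhibitor of NF-kB (3 samples, called IkB-DN lines). The marrow samples were pre-B cells taken straight from the bone marrow of RAG-1-deficient mice (2 samples, the control) or Artemis-deficient mice (2 samples), all carrying an IgH transgene and with no STI571. The labels name no purification method or marker for the marrow cells.

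The family works by binding between its members. Prosurvival proteins (BCL-2, BCL-XL from Bcl2l1, MCL-1) hold the effectors BAX and BAK in check at the mitochondrial surface. BH3-only proteins (BIM from Bcl2l11, BMF, PUMA from Bbc3, NOXA from Pmaip1, BID) are made or activated under stress and either occupy the prosurvival proteins or engage the effectors directly. Bbc3 and Pmaip1 are known targets of p53, which ATM activates after DNA damage. Bcl2l1 is a known target of NF-kB, and Bcl2l11 and Bbc3 of FOXO factors. In early B cells survival is known to depend on MCL-1 and BCL-XL, and BIM is a main mediator of their death.

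On the linear scale recovered from the deposited log10 values, line arrays had median signals of 26.8 to 27.7 and marrow arrays 46.9 to 47.8. Groups were therefore compared only within each set, and a level is set between lines and marrow only by its percentile within the array. The exception is a test, described below, of whether the Artemis difference itself differed between the sets, which used a joint fit of both. All 11 pre-B markers with a probe set reached the array median in the lines, with sums of 39000 to 51400 per sample, and also in the marrow. All 10 neutrophil and monocyte markers reached it in the marrow too. Their sums in Artemis-deficient marrow were 59500 to 65400, above the pre-B sums of 24700 to 34800. In RAG-1-deficient marrow they were 34600 to 49500, beside pre-B sums of 42400 to 46300. Sums of unlike probe sets do not give shares of cells. The IkB-DN lines had a higher sum of 10 neutrophil and monocyte markers (651 to 796) than the RAG-2-deficient lines (126 to 218). The lines lacking Artemis and ATM had 248 to 950, which spans the IkB-DN range. In the IkB-DN lines the largest parts were Itgam (389 to 452), Csf1r (119 to 167) and Lyz2 (84.6 to 126). Elane was 31.3 to 55.9 there, and Ngp (12.3 to 18.5) was not above the RAG-2-deficient lines (12.4 to 38.9). Mpo, S100a8, S100a9 and Ltf were at most 7.3 in the IkB-DN lines, and Cd14 had no value. Between IkB-DN and RAG-2-deficient lines, 3 of 5 tested neutrophil and monocyte markers were called higher and 2 of 5 plasma cell markers lower. Of 11 pre-B markers 1 was called higher and 1 lower, beside 10.6% of all genes called. The part of these markers in the IkB-DN results was not tested. The IkB-DN samples correlated with each other at r = 0.976 to 0.983 over probe sets. The technical array pairs gave 0.982 and 0.984, and samples of the other line groups gave 0.902 to 0.947. Since the IkB-DN values lie so near those of technical arrays, calls on these lines are given also with the 3 samples averaged as 1. Wild type replicate 3 carries the letters ATM in its title against its wild type source label, and the titles of the RAG-2-deficient samples contain unexplained letters Bcl. Without wild type replicate 3, no member was called in either comparison with wild type, as with it. Of the targeted genes, Nfkbia was lower in the IkB-DN lines (1800 to 2240) than in the Artemis-deficient lines (4110 to 4890). Atm was 107 to 108 in the lines lacking Artemis and ATM and 122 to 190 in the other lines. Rag2 was 19.8 to 327 in the RAG-2-deficient lines, which overlapped the wild type (173 to 305) and Artemis-deficient lines (283 to 357). Rag1 signal was 5360 to 6680 in the RAG-1-deficient marrow. Whether the probe sets of Rag1, Rag2 and Atm lie in the deleted parts was not tested, so they check no label, and the Artemis gene is not analysed here.

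Promoter sequence was available for 9 of the 10 genes, Bax included, as 16 windows from 250 bases before to 50 after a transcript start (RefSeq, GRCm38.p6). Sites are shown for NF-kB, because a group with NF-kB blocked is compared below, and for FOXO, because Bcl2l11 and Bbc3 ran together over the line samples. Each was searched on both strands by letters alone. The 10-base NF-kB consensus matched 3 of the 16 windows, against 8.5% of all 32851 windows of the same length. The FOXO heptamer GTAAACA matched 2 of 16, against 3.6%, and the 10-base unit of the p53 element matched 2 of 16 (Bmf and Bax), against 8.4%. Below, each sequence is 30 bases read 5′ to 3′ along the gene's strand, with the match in capitals.
Bcl2l1, NF-kB match 242 bases before a start, chr2:152830938-152830967, minus strand: tgtttgtgGGGGGTCTCCagcatacgcctc
Bbc3, NF-kB match 137 bases before a start, chr7:16309436-16309465, plus strand: tctggctgccGGGAAACCCCccgcgccgag
Bmf, NF-kB match read on the other strand, beginning at the first base after a start, chr2:118544568-118544597, minus strand: attgtacctcGGAGTCTCCCcagagccacg
Bcl2l11, FOXO match 227 bases before a start, chr2:128125800-128125829, plus strand: aagacactaggGTAAACAcgccggggtggg
Bbc3, FOXO match read on the other strand, 167 bases before another start, chr7:16310083-16310112, plus strand: tctggcgggttTGTTTACaaacaatggggt
The Bbc3 NF-kB match overlaps another on the opposite strand, shifted by a base. Of the 3 Bcl2l1 windows, 1 held an NF-kB match. These matches are descriptions of the letters, and binding was not measured.

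Of the 30 probe sets, 23 passed the filter on low values in the lines and 23 in the marrow, where a probe set passed if at least 2 samples reached the median of their own array. A probe set was called when limma's test gave an adjusted p below 0.05 over all probe sets of the comparison. Against the RAG-2-deficient lines, no member was called in the Artemis-deficient lines (0 of 23; 1.15% of all probe sets were called), the wild type lines (0 of 23; 0.832%) or the lines lacking Artemis and ATM (0 of 23; 0.695%). At an unadjusted p below 0.05 these comparisons held 5, 8 and 1 of the 23, beside 13.8%, 12.4% and 11.7% of all probe sets. In the IkB-DN lines 3 of 23 were called against RAG-2-deficient lines, all lower and all of Bcl2l1, while 9.96% of all probe sets were called. The same 3 were called higher in the lines lacking Artemis and ATM than in the IkB-DN lines (3 of 23; 6.71%). No member was called between Artemis-deficient and wild type lines (0 of 23; 0.503%; 6 at an unadjusted p below 0.05, beside 12.3% of all), with and without ATM (0 of 23; 0.283%; 6 unadjusted, beside 9.72%), or with and without IkB-DN (0 of 23; 2.05%; 4 unadjusted, beside 18.7%). An F test over the 5 line groups called 2 of 23, against 9.24% of all probe sets. In the marrow 2 of 23 were called, Bmf lower and Pmaip1 higher in Artemis-deficient cells, against 2.56%, and 12 had an unadjusted p below 0.05, beside 16.9% of all probe sets. Of these 12, Pmaip1, Bcl2 1422938_at and Bid 1448560_at had passed the filter only through the Artemis-deficient samples. All calls among the lines thus rest on 1 gene with 3 probe sets, and the marrow calls on 2 genes with 1 probe set each. At these sample sizes the ranges of 2 groups often did not overlap. This held for 14.9% to 48.8% of all probe sets per line comparison and 49% in the marrow.

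**Figure D1:**
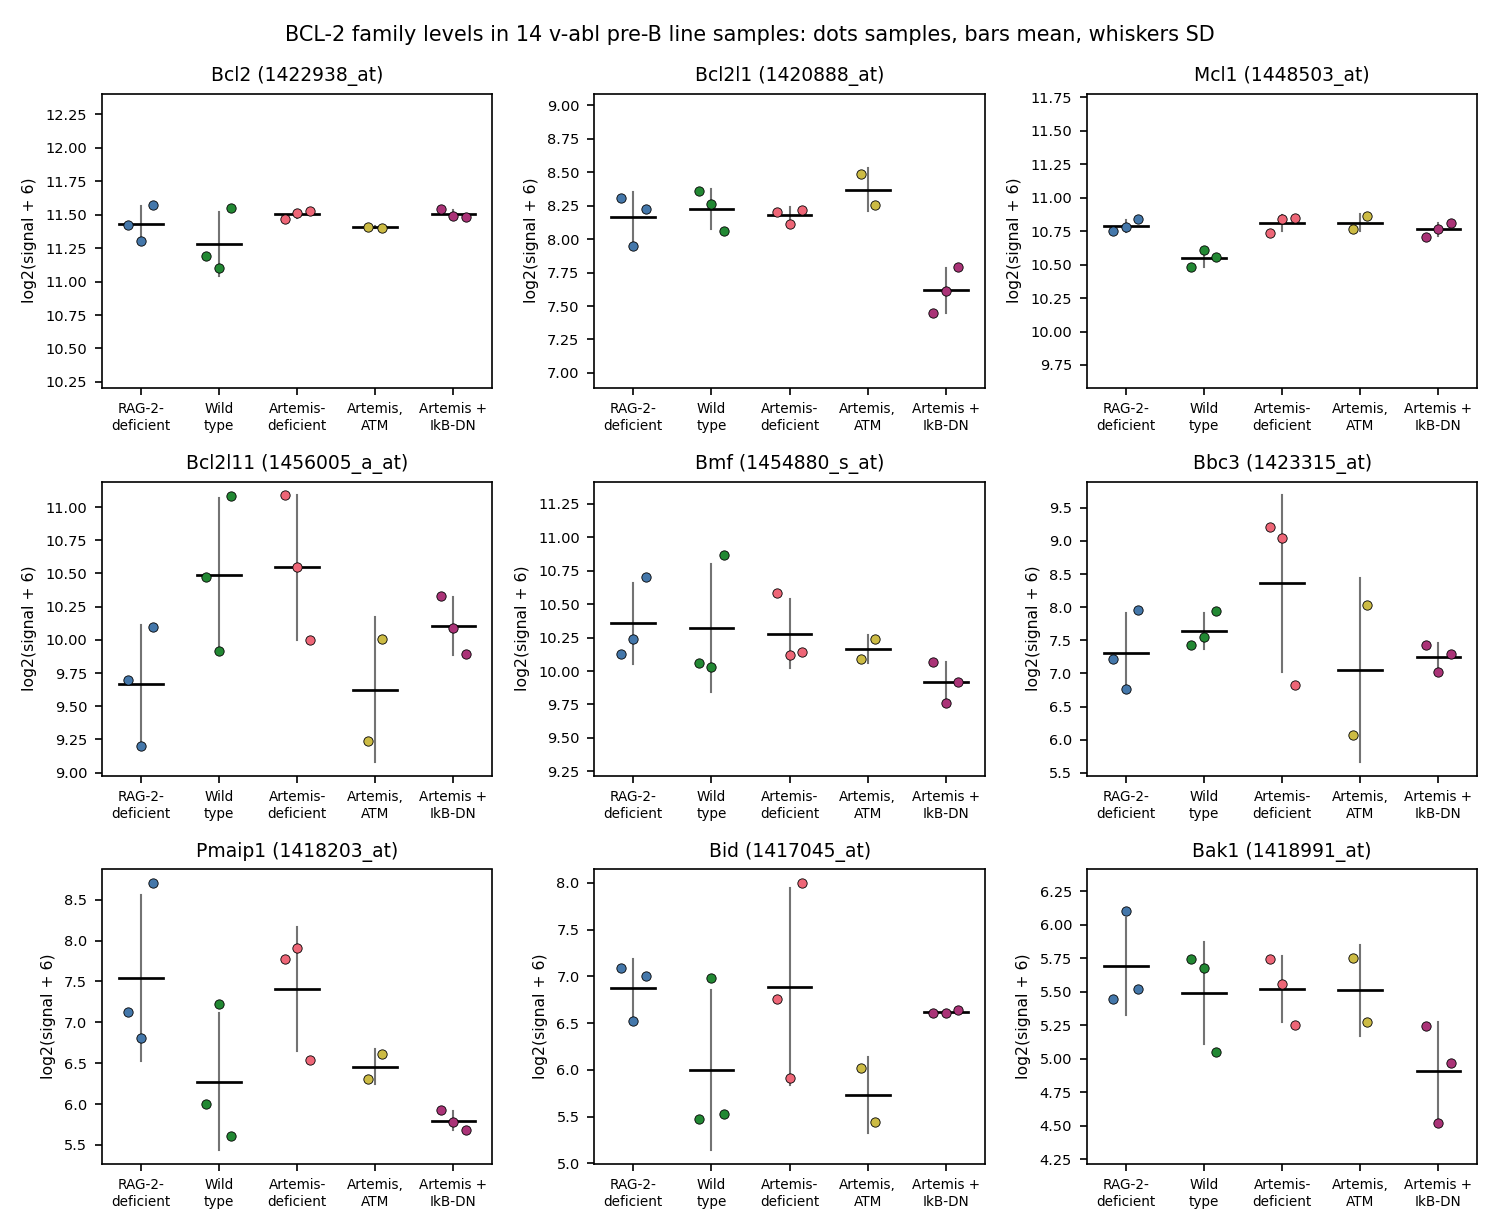
Level of each gene, as log2(signal + 6) of its brightest probe set, in the 14 line samples by group (each panel has its own axis; dots are samples, black bars means, grey whiskers 1 SD). The 3 IkB-DN samples lie below every other sample for Bcl2l1, the 3 wild type samples overlap no other group for Mcl1, and samples of a group are far apart for Bbc3, Bid and Pmaip1.

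Bcl2l1, which encodes the prosurvival protein BCL-XL, was lower in the IkB-DN lines by all 3 probe sets that passed the filter. The signal of probe set 1426191_a_at was 29.8, 25.9 and 37.8 in the 3 IkB-DN samples. It was 58.6, 61.5 and 74.2 in the RAG-2-deficient samples and 60.3, 55.2 and 58.4 in the Artemis-deficient samples. The wild type samples had 65.0, 69.6 and 43.4, and the samples lacking Artemis and ATM had 106 and 73.9. All 3 IkB-DN samples were thus below the other 11, with wild type replicate 3 the nearest above them. On the log2 scale this probe set fell by 0.94 ± 0.20 (SE, n = 3 and 3) in IkB-DN against RAG-2-deficient lines (adjusted p = 0.0134). Probe set 1420888_at fell by 0.55 ± 0.14 (adjusted p = 0.0277), from signals of 242 to 312 in the RAG-2-deficient lines to 169 to 215. Probe set 1420887_a_at fell by 0.75 ± 0.22 with an adjusted p of 0.0499, just inside the threshold, and was called in 9 of 23 alternative settings. The groups did not overlap for any of the 3. In this comparison 38.2% of all probe sets and 8 of 23 member probe sets did not overlap. The 3 probe sets ran together over the 14 line samples at r = 0.874 to 0.931, and they share the gene, so they are not 3 independent results.

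The lines lacking Artemis and ATM had the highest Bcl2l1 means by all 3 probe sets. Against the IkB-DN lines the difference was 1.36 ± 0.22 for 1426191_a_at (n = 2 and 3, adjusted p = 0.00738), 0.75 ± 0.15 for 1420888_at (adjusted p = 0.0164) and 1.07 ± 0.24 for 1420887_a_at (adjusted p = 0.0255). Their own difference from the RAG-2-deficient lines was not called. Between Artemis-deficient lines without and with IkB-DN, where both make breaks, Bcl2l1 differed by 0.56 (1420888_at, adjusted p = 0.0569), 0.80 (1426191_a_at, adjusted p = 0.0627) and 0.47 (1420887_a_at, adjusted p = 0.268), none of them called. Without wild type replicate 3, which enters the shared estimate of spread, 1420888_at and 1426191_a_at were called (adjusted p = 0.0494 and 0.0376). The Artemis-deficient and RAG-2-deficient lines overlapped, with a difference of 0.02 for 1420888_at (95% interval -0.28 to 0.31). With the 3 IkB-DN samples counted as 1, none of these calls held (adjusted p = 0.26 for 1426191_a_at against the RAG-2-deficient lines and 0.208 against the lines lacking Artemis and ATM, with the same differences). Against the RAG-2-deficient lines, 1426191_a_at also missed the threshold without RAG-2-deficient replicate 3 (adjusted p = 0.0505), IkB-DN replicate 1 (0.0515) or IkB-DN replicate 2 (0.0657), and against the lines lacking Artemis and ATM without their replicate 1 (0.0666). The remaining Bcl2l1 probe set, 1426050_at, did not pass the filter, with signals of 1.62 to 11.5 in the line samples.

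**Figure D2:**
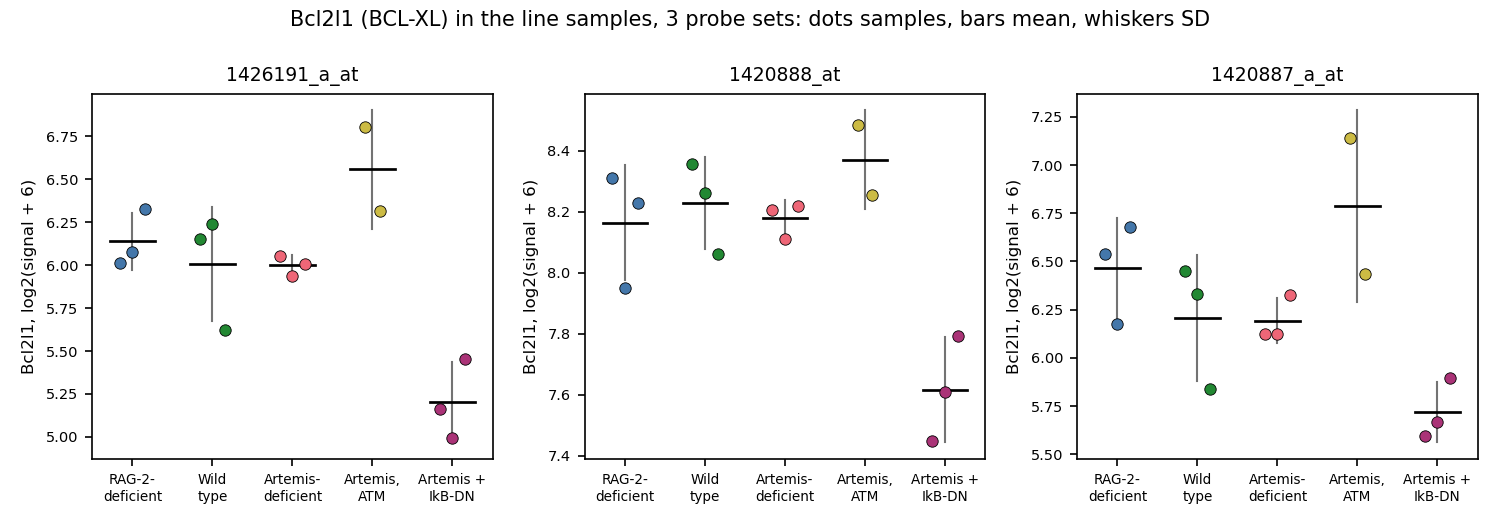
Bcl2l1 as log2(signal + 6) by 3 probe sets in the 14 line samples (dots samples, black bars means, grey whiskers 1 SD). By 1426191_a_at the IkB-DN mean was 5.20 against 6.14 in RAG-2-deficient and 6.56 in Artemis- and ATM-deficient lines, and in each panel the IkB-DN samples are the lowest group.

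Bcl2, the founding prosurvival member, was not called between line groups by any test. Probe set 1422938_at gave a signal of 2191 to 3032 in the 14 line samples, which placed it at the 99.0 to 99.3 percentile of each array. Its largest difference from the RAG-2-deficient lines was -0.15 ± 0.11 (wild type, adjusted p = 0.644). In the marrow the same probe set lay at the 47.7 to 58.2 percentile. The other 4 Bcl2 probe sets lay at higher percentiles in the marrow than in the line samples that had a value. Those of 1437122_at were 68.3 to 81.1 in the marrow and 3.25 to 37.8 in the lines, and those of 1440770_at were 58.0 to 74.3 in the marrow and lower in each line sample with a value. Those of 1443837_x_at were 49.4 to 71.5 in the marrow and 8.54 to 44.1 in the lines. The only one of these 4 to pass the filter in the lines was 1457687_at, at 2.59 to 61.1 there and 72.6 to 87.7 in the marrow. Its log2 mean was 5.60 in IkB-DN (n = 3), 4.15 in RAG-2-deficient (n = 2) and 3.06 in wild type lines (n = 2). In Artemis-deficient lines it was 4.60 (n = 2) and in lines lacking Artemis and ATM 3.96 (n = 2), with no call. Probe sets of a gene read different stretches of its transcripts. The labels do not say whether the lines carry an added Bcl2 gene, and its part in the high signal of 1422938_at was not tested.

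**Figure D3:**
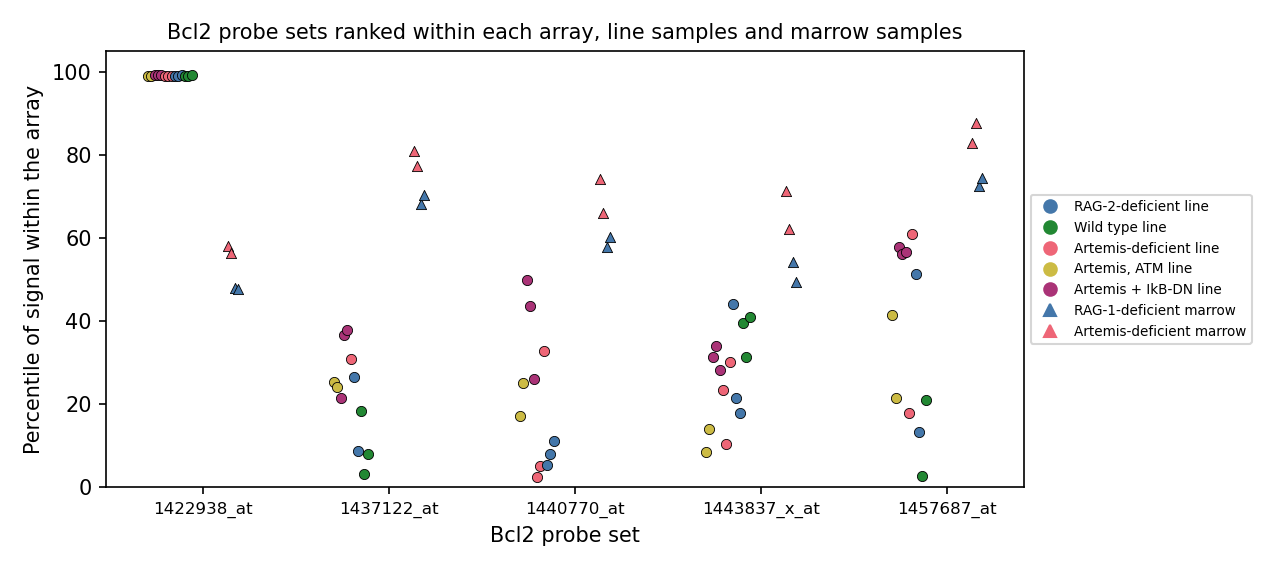
Percentile of 5 Bcl2 probe sets within each array, for line samples (circles) and marrow samples (triangles), coloured by group; samples with an empty cell have no point. Probe set 1422938_at lies near the top of every line array and near the middle of the marrow arrays, and the other 4 lie higher in the marrow than in the lines.

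Mcl1, whose short-lived protein is needed in early B cells, had 6 probe sets, all measured in every sample and none called. The signal of 1448503_at was 1425, 1555 and 1507 in the wild type samples and 1673 to 1855 in the other 11 line samples, so the wild type group did not overlap the rest. The difference from RAG-2-deficient lines was -0.24 ± 0.07 (n = 3 and 3, adjusted p = 0.18) and that from Artemis-deficient lines was 0.26 ± 0.07 in the Artemis direction (adjusted p = 0.151). For 1416881_at the wild type samples had 341, 424 and 327, again below the rest (438 to 564), with a difference of -0.39 ± 0.12 from the RAG-2-deficient lines (adjusted p = 0.206). Neither was called, under the main setting or under any of the alternatives tried. Between Artemis-deficient and RAG-2-deficient lines the difference of 1448503_at was 0.02, with a 95% interval of -0.14 to 0.18. For 1456381_x_at the signals were 684 to 1073 over the line samples, and Artemis-deficient lines lay above wild type lines without overlap, by 0.32 ± 0.12 (adjusted p = 0.294). Of all probe sets, 14.9% did not overlap between Artemis-deficient and wild type lines, and 15.6% between wild type and RAG-2-deficient lines. Signals over the line samples were 926 to 1450 for 1416880_at, 1092 to 1774 for 1437527_x_at and 964 to 1399 for 1456243_x_at. The 6 probe sets correlated with each other at r = 0.358 to 0.944 over the line samples.

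Bcl2l11, the gene of the BH3-only protein BIM, had higher means in the Artemis-deficient and wild type lines than in RAG-2-deficient lines by all 5 probe sets, and none was called. The signal of 1456005_a_at was 2175, 1497 and 1017 in the Artemis-deficient samples, 1413, 958 and 2162 in the wild type samples and 823, 584 and 1088 in the RAG-2-deficient samples. The samples lacking Artemis and ATM had 597 and 1026, and the IkB-DN samples 1278, 1082 and 947. Each group's range overlapped that of the RAG-2-deficient lines. For 1435449_at the Artemis-deficient samples (301.4 to 613) lay just above the RAG-2-deficient ones (184 to 301.0), and its difference of 0.93 ± 0.32 had an adjusted p of 0.21. In this comparison 18.8% of all probe sets and 1 of 23 member probe sets did not overlap. The other probe sets ranged over 321 to 1072 (1435448_at), 87.2 to 314 (1456006_at) and 59.4 to 210 (1426334_a_at) in the line samples. The differences of the 5 probe sets were 0.57 to 0.93 in Artemis-deficient and 0.28 to 0.82 in wild type lines. These 5 share the gene and correlated at r = 0.783 to 0.986 over the line samples, so they are not 5 independent results. In the marrow the 4 probe sets tested differed by -0.20 to -0.42, towards lower values in Artemis-deficient cells, with no call.

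Bmf, which encodes a BH3-only protein known for its tie to the cytoskeleton, was not called in the lines. The signal of 1454880_s_at was 1113, 1205 and 1658 in the RAG-2-deficient samples and 1527, 1109 and 1124 in the Artemis-deficient samples, a difference of -0.07 ± 0.22 (adjusted p = 0.928). The lowest mean was that of the IkB-DN lines, with signals of 863 to 1066, which did not overlap the RAG-2-deficient lines and differed from them by -0.44 without a call (adjusted p = 0.238). Another Bmf probe set, 1422995_at, differed by -0.57 ± 0.23 between Artemis-deficient and RAG-2-deficient lines (95% interval -1.08 to -0.06, adjusted p = 0.309). It differed by -0.52 between Artemis-deficient and wild type lines (adjusted p = 0.394). These Bmf probe sets correlated at r = 0.54 over the line samples, and 1458325_x_at did not pass the filter.

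Bbc3 (PUMA) and Pmaip1 (NOXA), BH3-only genes of the p53 response, were not called in the lines. The Bbc3 signal was 588, 522 and 107 in the Artemis-deficient samples, and 143, 102.7 and 241 in the RAG-2-deficient samples. The lines lacking Artemis and ATM had 61.9 and 256, the wild type lines 166 to 241 and the IkB-DN lines 124 to 167. Artemis-deficient replicates 1 and 2 were thus the highest of the 14 samples and replicate 3 among the lowest, and the difference from RAG-2-deficient lines was 1.05 ± 0.60 (adjusted p = 0.49). Over the 14 line samples Bbc3 and Bcl2l11 had the highest correlation of any pair of these genes (r = 0.777), given as a description over samples that share groups. For Pmaip1 the signal was 134, 106 and 411 in the RAG-2-deficient samples and 213, 234 and 86.7 in the Artemis-deficient samples. The IkB-DN samples had 54.7, 48.8 and 45.5 and the samples lacking Artemis and ATM had 73.0 and 91.8, all below the RAG-2-deficient group. Wild type samples had 57.9, 143 and 42.6. Pmaip1 in IkB-DN against RAG-2-deficient lines differed by -1.75 ± 0.52 and just missed the threshold (adjusted p = 0.053). It was called in 7 of the 23 alternative settings, among them those without wild type replicate 2 (adjusted p = 0.035), wild type replicate 3 (0.0472), RAG-2-deficient replicate 2 (0.0432) and Artemis-deficient replicate 3 (0.0384). With the IkB-DN samples counted as 1 its adjusted p was 0.479.

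Bid, whose protein is cut by caspase-8 and links death receptors to mitochondria, had its lowest mean in the lines lacking Artemis and ATM. The signal of 1448560_at was 11.6 and 4.74 there, against 38.4, 33.4 and 45.4 in the RAG-2-deficient samples and 34.9, 19.6 and 64.2 in the Artemis-deficient samples, with no overlap. Of all probe sets, 29.4% did not overlap in the first of these comparisons and 26.3% in the second. The wild type samples had 14.1, 28.9 and 7.83, which overlap the samples lacking Artemis and ATM. The differences were -1.72 ± 0.44 from RAG-2-deficient lines (n = 2 and 3, adjusted p = 0.113) and 1.63 ± 0.44 between Artemis-deficient lines with and without ATM (adjusted p = 0.2), and neither was called. With pseudocounts below and above the one used, the first of these was -2.29 and -0.83, still uncalled. Probe set 1448560_at reached the array median in 0 of 2 samples lacking Artemis and ATM. It did so in 3 of 3 RAG-2-deficient and 2 of 3 Artemis-deficient samples, so in these comparisons it passed the filter only through the higher group. Probe set 1417045_at gave -1.14 ± 0.54 against RAG-2-deficient lines (adjusted p = 0.44), and both ran together over the line samples (r = 0.927). Probe set 1447873_x_at did not pass the filter.

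Bak1, the effector that forms pores in the mitochondrial outer membrane, had 1 probe set that passed the filter, 1418991_at, and another, 1425716_s_at, that did not. Its signal was 31.9, 16.97 and 25.3 in the IkB-DN samples, and 37.6, 62.9 and 39.8 in the RAG-2-deficient samples. The IkB-DN samples were lower without overlap, and the difference was -0.78 ± 0.27 (adjusted p = 0.0937, and 0.501 with the IkB-DN samples as 1). In that comparison 38.2% of all probe sets did not overlap. The other 3 line groups differed from RAG-2-deficient lines by -0.17 to -0.20.

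In the marrow samples labelled pre-B, Bmf was lower and Pmaip1 higher in the Artemis-deficient than in the RAG-1-deficient group. The Bmf signal by 1454880_s_at was 240 and 312 in the Artemis-deficient samples and 876 and 1091 in the RAG-1-deficient samples, with no overlap. In the marrow 49% of all probe sets and 15 of 23 member probe sets did not overlap. On the log2 scale Bmf fell by 1.80 ± 0.21 (SE, n = 2 and 2, adjusted p = 0.0229). Probe set 1422995_at of Bmf read 18.8 to 22.4 and 16.3 to 20.9 in the same groups, too low to pass the filter, so 1 probe set carries this result. Pmaip1 had signals of 107 and 131 in the Artemis-deficient and 35.2 and 33.9 in the RAG-1-deficient samples, a difference of 1.51 ± 0.27 (adjusted p = 0.0385). The RAG-1-deficient samples were below the medians of their arrays, so Pmaip1 passed the filter only through the group where it was high. With no filter it was also called (adjusted p = 0.038). Both calls were lost without RAG-1-deficient replicate 1 (Bmf -1.95, adjusted p = 0.138; Pmaip1 1.53, 0.257) or replicate 2 (Bmf -1.64, 0.0851; Pmaip1 1.49, 0.202), in fits that assume the lone control sample to vary like the other group. They were also lost without the intensity trend in the variance (0.052 and 0.0535).

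Bid and Bbc3 also had higher means in the Artemis-deficient cells, without a call. Bid differed by 1.02 ± 0.22 (1417045_at, signals of 513 and 375 against 190 and 235, adjusted p = 0.0644) and 1.29 ± 0.34 (1448560_at, adjusted p = 0.107), the latter a probe set that passed the filter only through the Artemis-deficient samples. Bbc3 differed by 0.99 ± 0.27 (174 and 119 against 64.4 and 69.4, adjusted p = 0.111). Among prosurvival genes, all 5 Bcl2 probe sets had higher means in the Artemis-deficient cells, by 0.69 to 1.18, with adjusted p from 0.0528 to 0.27. For 1457687_at the signals were 365 and 536 against 181 and 209, and it was called in 5 of 10 alternative settings. Signals were 207 and 126 against 74.7 and 87.4 for 1440770_at (0.91, adjusted p = 0.16) and 173 and 99.3 against 59.8 and 45.1 for 1443837_x_at (1.18, adjusted p = 0.114). Probe set 1422938_at of Bcl2 passed the filter only through the Artemis-deficient samples. Bcl2l1 differed by -0.49 and -0.68 for its 2 tested probe sets, Bak1 by -0.27, and Mcl1 differed by 0.01 to 0.46.

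**Figure D4:**
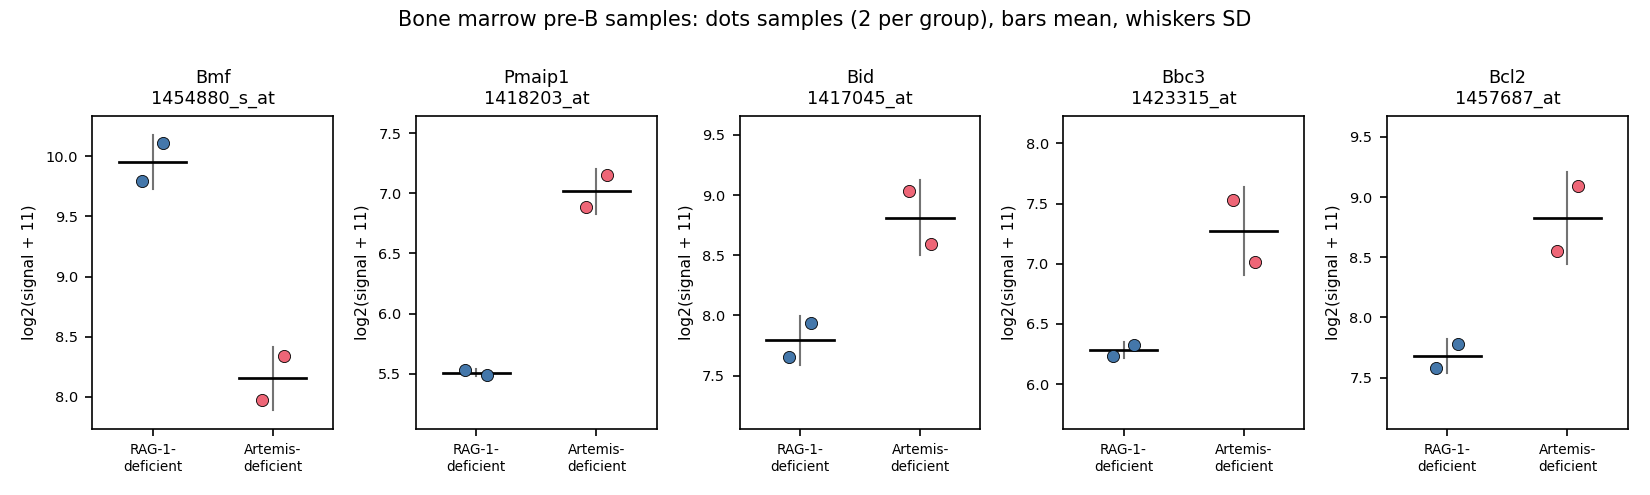
Marrow levels as log2(signal + 11) for 5 member probe sets, 2 samples per group (dots samples, black bars means, grey whiskers 1 SD; every axis spans the same log2 range). Bmf is lower and Pmaip1, Bid, Bbc3 and Bcl2 are higher in both Artemis-deficient samples; of these, Bmf and Pmaip1 passed the test.

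Markers of other cell types moved with the same contrast. Signal sums of 6 dendritic cell markers were 13800 to 17500 in the Artemis-deficient and 3870 to 5770 in the RAG-1-deficient marrow, and 5 of the 6 were called higher. The 10 neutrophil and monocyte markers summed to 59500 to 65400 against 34600 to 49500, with all 10 higher in mean and 1 called. The 8 T and NK markers with a probe set summed to 12500 to 13000 against 7520 to 10100, with 0 called. The 11 pre-B markers summed to 24700 to 34800 against 42400 to 46300, with none higher in mean and Vpreb1 called lower. Sums were also lower for erythroid (4130 to 4460 against 5180 to 5670), mature B (696 to 721 against 1030 to 1380) and plasma cell markers (5090 to 6120 against 6150 to 7030). Of these, 0 of 4, 0 of 3 and 1 of 4 tested were higher in mean, and 0 were called by limma, with 2, 1 and 2 at an unadjusted p below 0.05. In such bulk samples fewer cells of a type and less RNA per cell cannot be told apart. The part of these markers in the Bmf and Pmaip1 results was not tested.

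The Artemis contrast was also compared between the sets, as the difference in the marrow minus that in the lines, a test added after the values were seen. It used a joint fit of the log2 levels of both sets, with a shared estimate of spread and unlike pseudocounts (6 and 11). Of 20 member probe sets tested in both sets, 1 was called (0.459% of all probe sets were): Bmf 1454880_s_at, at -1.72 ± 0.35 (adjusted p = 0.0482), from -1.80 in the marrow and -0.07 in the lines. For Pmaip1 the corresponding value was 1.65 ± 0.76 (adjusted p = 0.395), so its contrasts of 1.51 and -0.14 were not shown to differ. Bcl2l11 1435449_at gave -1.35 ± 0.50 (adjusted p = 0.255). Another Bmf probe set, 1422995_at, did not pass the filter in the marrow and was not in this test. Its log2 means were 6.68 in Artemis-deficient and 7.25 in RAG-2-deficient lines, lower as in the marrow but without a call. The joint test was run under the main setting only. The sets differ in cell type, drug and control genotype, which cannot be told apart here.

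**Figure D5:**
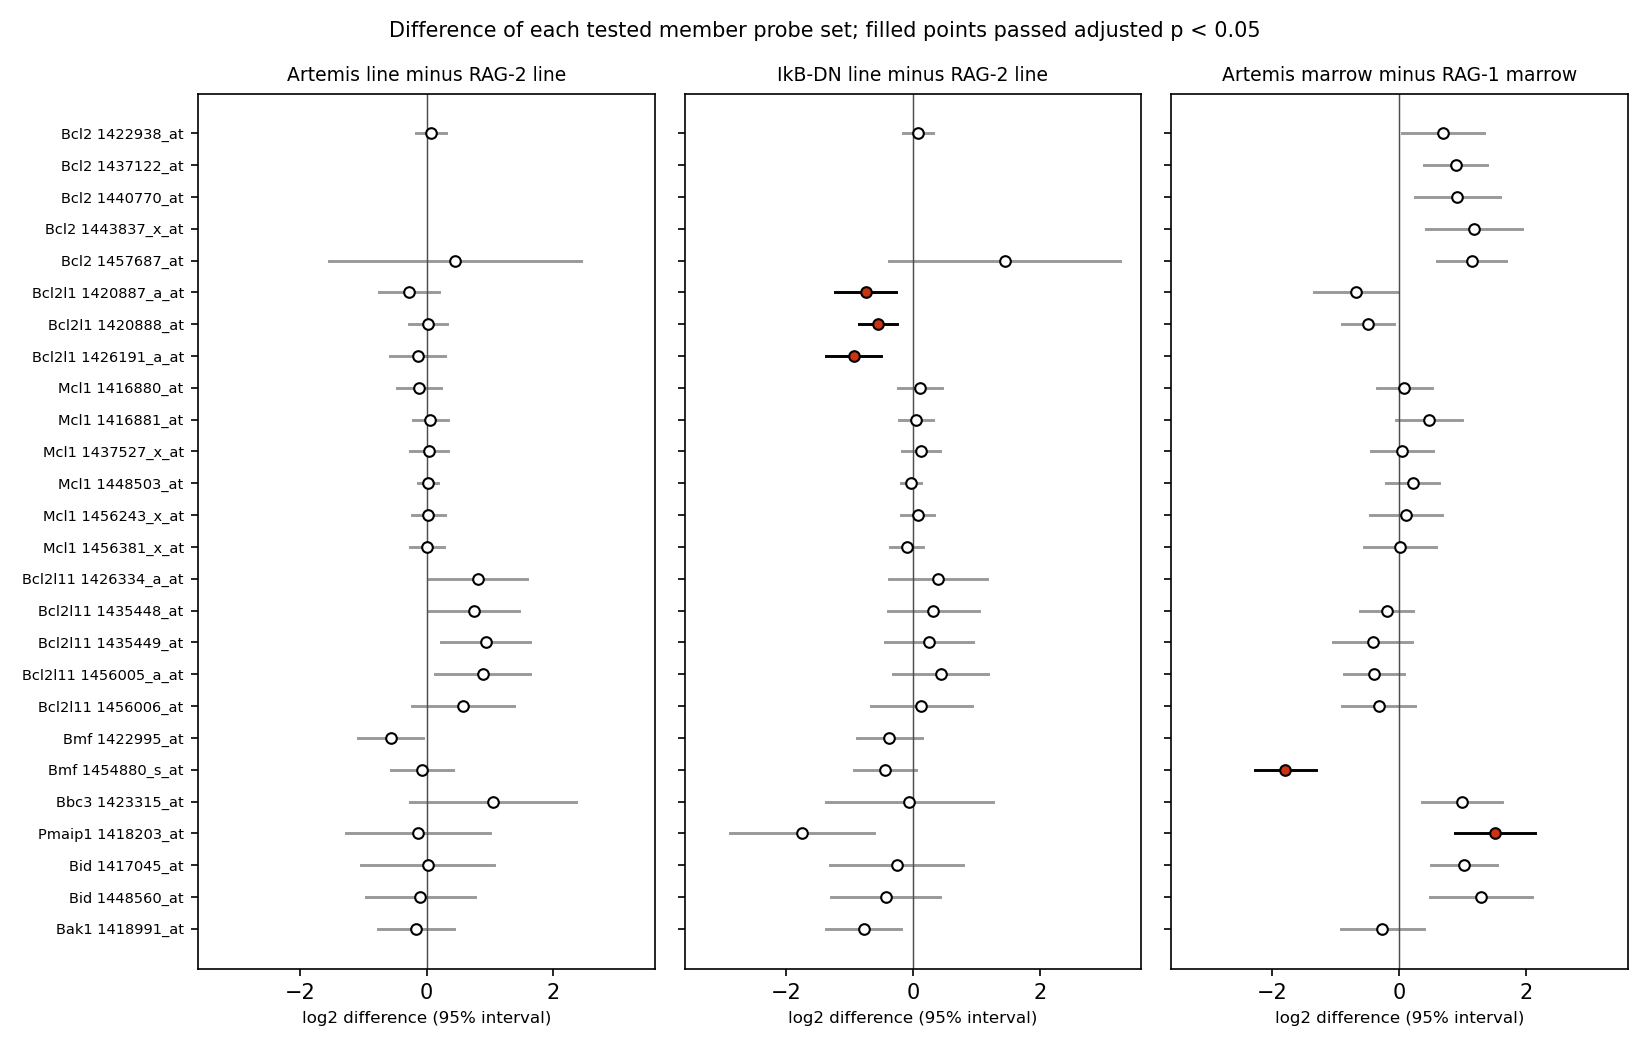
Log2 difference with its 95% interval for each member probe set tested, in 3 comparisons (filled points passed an adjusted p of 0.05; empty rows were not tested in that set). The called points are the 3 Bcl2l1 probe sets in IkB-DN against RAG-2-deficient lines, and Bmf and Pmaip1 in the marrow.

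Genes around the family were counted from lists, with 1 probe set per gene. Of 6 other prosurvival genes 1 was tested, Bcl2l2 (BCL-W), and it was not called in any of the 9 comparisons between 2 groups. Among 6 tested of 10 genes on a list of further family members, Bcl2l12 was called, lower by -0.79 ± 0.15 in IkB-DN against RAG-2-deficient lines (adjusted p = 0.00801). In that comparison 10.6% of all genes were called. Of 18 tested genes for caspases and the mitochondrial machinery, 3 were called there. Casp8, the initiator caspase that cuts BID, was higher by 1.22 ± 0.13 (adjusted p = 0.000484), and Casp2 was higher by 0.52 ± 0.13. Cycs, the cytochrome c that effectors release from mitochondria, differed by -0.95 ± 0.11 (adjusted p = 0.00087). Casp8 and Cycs were also called in Artemis-deficient lines without against with IkB-DN (-1.14 and 0.73), where 2.4% of genes were called. Against the IkB-DN lines, the lines lacking Artemis and ATM had 4 of 18 called: Casp8 (-1.11), Cycs (0.61), Endog (-1.295) and Xiap (-0.43), an inhibitor of caspases, beside 7.14% of all genes. The IkB-DN group enters each of these comparisons, so they share samples. With its 3 samples counted as 1, none of these list calls held, at the same differences. The adjusted p of Casp8 and Cycs was then 0.0563 for each against RAG-2-deficient lines, that of Bcl2l12 0.242 and that of Casp2 0.297. In the other comparisons Casp8, Cycs and Xiap had 0.149 to 0.429, and Endog was not tested.

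Of 18 tested upstream regulators in the lines, Pim2, a kinase known to promote lymphocyte survival, was called higher in Artemis-deficient lines than in RAG-2-deficient lines (2.76 ± 0.55, adjusted p = 0.0374), than in lines also lacking ATM (3.97 ± 0.62, adjusted p = 0.0236) and than in IkB-DN lines (3.42 ± 0.55, adjusted p = 0.0112). It was the only regulator called in these 3 comparisons, in which 1.11%, 0.334% and 2.4% of genes were called. Mapk8, the kinase JNK1, was lower than in RAG-2-deficient lines in the lines lacking Artemis and ATM (-1.10 ± 0.20) and in the IkB-DN lines (-0.76 ± 0.18), and Foxo1 was lower in the latter (-0.48 ± 0.12, adjusted p = 0.0261). With the IkB-DN samples counted as 1, the calls that involve them were lost for Pim2 (adjusted p = 0.537), Mapk8 (0.285) and Foxo1 (0.353). In the marrow 1 of 19 regulators was called, Ddit3 (CHOP), lower by -1.26 ± 0.22 in Artemis-deficient cells (adjusted p = 0.0353), with 2.65% of genes called. By limma, 0 of 18 caspase and mitochondrial genes were called there, and 1 had an unadjusted p below 0.05.

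The genes most like 4 members over the 14 line samples were found by Pearson's r among 9428 genes, as a description. For Bcl2l1 these were Ncbp2 (r = 0.913), Psmb7 (0.913) and Sec13 (0.908). Mcl1 ran most closely with Ccnjl (0.957), Prss53 (0.924) and Icam2 (0.86). Pmaip1 was closest to Trim21 (0.817), Prss23 (0.811) and Mri1 (0.801), and Bcl2l11 to Cd81 (0.916), 9230114K14Rik (0.898) and Zscan22 (0.874). These points share arrays, groups and scaling.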

How the data were processed

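Biotin-labelled cRNA was hybridised to 20 Affymetrix Mouse 430 v2 arrays, which were read with GeneChip Operating Software 1.2.0.037, per the labels. The authors deposited log10 signals; the base was inferred from the values, and the summary method and scaling are nowhere stated. Of 44200 probe sets, 34294 named 1 gene, and 14.7% of cells were empty and stayed so. Signals were raised by the 25th percentile of their set (6 in the lines, 11 in the marrow) and taken to log2, so differences of dim probe sets are understated. Probe sets in which at least 2 samples reached their array's median were kept (21921 in the lines, 19520 in the marrow).

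The tests were those of the R package limma (3.58.1, R 4.3.3; two-sided moderated tests from lmFit and eBayes, the prior variance following intensity, Benjamini-Hochberg over all probe sets of a comparison). The 14 line samples shared a fit with 9 residual degrees of freedom, and the 4 marrow samples had one with 2. The test of the marrow contrast minus the line contrast used a joint fit of both sets. The planned test assumed linear signals, which the log10 values were turned back into. The fits were tested on simulated data. Figures used matplotlib. The number of arrays limits the precision.

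The members and gene lists were chosen with earlier results of these data known. Every member is named with all its probe sets, with the brightest representing the gene, together with up to 4 called genes per list and comparison and, for the 4 members with the smallest F test p, the 3 most correlated genes. The series' design text calls the samples of a group biological replicates without saying how they were derived. The p-values therefore judge a difference against the spread between these samples. That spread was moderated over probe sets, and in the lines it was shared by all 5 groups. Alternatives were the pseudocount, the filter, quantile normalization, the intensity trend, array weights, each sample left out, the compared groups alone, technical arrays as a random block, the IkB-DN samples left out or counted as 1 and, added after seeing the data, that count for the list genes and a replicate block.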

Additional observations from a re-analysis of the deposited data

Results flagged for a closer look

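The Artemis contrast of Bmf (probe set 1454880_s_at) differed between marrow and lines in a test of the difference itself: the marrow contrast minus the line contrast was -1.72 on the log2 scale. Both Artemis-deficient marrow samples (240 and 312) were below both RAG-1-deficient ones (876 and 1091), while Artemis-deficient lines (1109 to 1527) and RAG-2-deficient lines (1113 to 1658) overlapped. The test was added after the values were seen and was run under the main setting only, with an adjusted p of 0.0482 by limma. The marrow call of Bmf itself was lost without the intensity trend. The sets differ in cell type, drug and control genotype, which cannot be told apart here.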

How the results depend on the processing

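None of the 24 member values followed through the alternatives, those with an unadjusted p below 0.01, reversed its direction, and the counts of 0 called against RAG-2-deficient lines, between Artemis-deficient and wild type lines, and with and without ATM were 0 under all of them. Between IkB-DN and RAG-2-deficient samples the 3 calls became 5 with array weights, 0 with the IkB-DN samples as 1, and 0 to 4 when a sample was left out (0 without RAG-2-deficient replicate 3 or IkB-DN replicate 1 or 2, 1 without RAG-2-deficient replicate 1). Against the lines lacking Artemis and ATM the 3 became 7 with the compared groups alone, 0 with the IkB-DN samples as 1, and 0 to 3 without a sample (0 without replicate 1 of the lines lacking Artemis and ATM, 1 without IkB-DN replicate 1 or 2). Artemis-deficient lines without against with IkB-DN went from 0 to 3 with array weights, and to 0 to 2 without a sample. The F test's 2 became 5 with array weights, 0 without the IkB-DN lines or with them as 1, and 0 to 4 without a sample. The marrow's 2 became 0 without the intensity trend and 0 to 9 without a sample, 9 without Artemis-deficient replicate 2 and 0 without either RAG-1-deficient replicate. What moved these counts was not tested. The fits that left a sample out also had fewer samples. The called values ranged over -1.06 to -0.62 for Bcl2l1 1426191_a_at in IkB-DN against RAG-2-deficient lines (called in 19 of 23 settings), -1.98 to -1.61 for Bmf and 1.18 to 1.75 for Pmaip1 in the marrow (each called in 7 of 10). Titles in 3 line groups share the numbers 1 and 2 without saying that a number marks a batch. The differences between samples 1 and 2 of a group correlated between these groups at -0.213 to 0.17. With 1 such difference per group, these values cannot show whether a number marks a batch. In a fit of these 6 samples with the number as a replicate block, added after seeing the data, 0 members were called for wild type or Artemis- and ATM-deficient against RAG-2-deficient lines, as without it.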
